A study of Homo sapiens with 8 samples.

Results

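The 10 genes described here, ATF4, DDIT3, TRIB3, ATF3, CHAC1, SESN2, DDIT4, CEBPB, CEBPG and PPP1R15A, are the transcription factors and effectors of the integrated stress response. They were taken by name, from a list drawn up with earlier results of these data known, and all 10 were among the 57189 genes counted. RNA-seq was carried out in 2 human T-cell acute lymphoblastic leukaemia lines, CUTLL1 and TIB153 (the labels write the first as CUTTL1). Cells of each line received either control treatment or 1 µM PKF118-310, an inhibitor of the complex of β-catenin with TCF factors, for 24 h. None of the cells had been transfected, and all were grown in RPMI medium with fetal bovine serum. The paper reported reduced viability of both lines by MTS assay at this dose and time. The part of this loss in the RNA changes was not tested. Each line and treatment was analysed from 1 library with 2 files, which the labels give the same library name and a lane number each, and the lanes were summed. The authors' own comparison tables list 2 control and 2 treated columns per line, whose counts are not those of the lanes and whose names match no sample label, and they were not used here. Thus, the spread between replicates within a line was not measured in the libraries used here. The test of the treatment used the 2 lines as its replicates.

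In the integrated stress response, the kinases PERK, GCN2, PKR and HRI phosphorylate the translation factor eIF2. General protein synthesis then slows, while mRNAs with upstream open reading frames, such as that of ATF4, are translated more. ATF4, a basic leucine zipper (bZIP) factor, binds DNA with C/EBP proteins and other partners. It drives genes of amino acid supply and stress control, among them DDIT3, which encodes CHOP. PPP1R15A (GADD34) closes the loop by bringing protein phosphatase 1 to eIF2. Only RNA was measured here, so neither eIF2 phosphorylation nor ATF4 protein is described.

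The libraries held between 7609427 and 8140391 counts, and 3 counts corresponded to 0.369 to 0.394 CPM (counts per 1000000 counts of a library). Counts on both lanes of a library agreed within sampling noise (chi-square per degree of freedom, 0.99 to 1.02). All 10 T-lineage marker genes were detected in every library, with a summed level of 3637 and 2880 CPM in control and treated CUTLL1 and of 2702 and 2625 CPM in TIB153. B-lineage markers summed to 10.9 and 14.2 CPM in CUTLL1 and to 79.1 and 105 CPM in TIB153, where CD79A alone gave 79.0 and 104 CPM. The mitochondrial share of counts was 4.18% and 3.78% in CUTLL1 and 4.01% and 5.06% in TIB153, control first. The part of these differences in the results was not tested.

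The proximal promoters of the genes, from 250 bases before to 50 after each annotated start in RefSeq (GRCh38.p14), were searched on both strands because most of the genes moved together. ATF4 pairs with C/EBP proteins on a composite element with the core TGATGNAA. The 10 genes had 17 such promoters. This core was in 3 of the 17, of 3 different genes, and in 3.62% of 35116 promoters overall. The cAMP response element TGACGTCA, a site of CREB and ATF factors, was in that of PPP1R15A and in 1.85% of all. The AP-1 site TGACTCA was in 2 overlapping promoters of DDIT3, as the same match, and in 4.95% of all. None of these matches overlapped another. The stretches are shown 5′ to 3′ on the gene's strand, with the match in capitals. That of ATF3 lies upstream of the gene at chr1:212565176-212565263, that of PPP1R15A upstream of the gene at chr19:48872323-48872391, that of CEBPG in an intron at chr19:33374031-33374112, that of DDIT3 in an intron at chr12:57520709-57520764, and that of CHAC1 in a non-coding exon stretch at chr15:40953251-40953280. DDIT3 is on the minus strand and the others are on the plus strand.
ATF3: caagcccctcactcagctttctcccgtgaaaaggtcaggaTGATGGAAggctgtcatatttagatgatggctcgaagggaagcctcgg
CEBPG: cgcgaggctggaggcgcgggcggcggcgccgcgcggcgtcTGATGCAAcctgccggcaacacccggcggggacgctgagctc
CHAC1: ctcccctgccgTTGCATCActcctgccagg
PPP1R15A: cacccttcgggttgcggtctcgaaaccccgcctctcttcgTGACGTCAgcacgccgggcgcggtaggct
DDIT3: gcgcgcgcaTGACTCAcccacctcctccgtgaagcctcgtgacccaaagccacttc
The antioxidant response element core TGACNNNGC was found in 5 of the 17 promoters, those of CEBPB, PPP1R15A and TRIB3, and in 13.3% of all promoters. The TRIB3 promoters among them overlap and hold the same match, so 1 site was counted more than once and the 2 shares are not alike. A match describes these letters and not a bound site.

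PKF118-310 was followed by higher mRNA of most of the stress effectors in both lines. Across the lines, 8 of the 10 genes rose, led by PPP1R15A (4.97-fold), DDIT3 (4.37-fold) and ATF3 (4.19-fold), and ATF4 and DDIT4 did not pass the test. None fell by edgeR's quasi-likelihood test (0 of 10, with 0 at an unadjusted p under 0.05 and 0 by DESeq2). Of the 13280 genes tested, 6.11% rose and 6.78% fell, at an adjusted p under 0.05. With scaling by total counts in place of TMM, 827 genes rose and 552 fell, against 812 and 900, and the same number of members, 8, rose. By DESeq2, 6 members rose (all but CHAC1 and CEBPG of the 8), as did 200 genes in all. Without the line as a term, 0 members rose by edgeR (5 at an unadjusted p under 0.05), as did 0 genes in all. In 7 of the 10 the rise was at least 2-fold, against 2.45% of all genes. The median log2 change of the 10 was 1.12, and that of all genes was 0.00. In bulk RNA, a change in the cells present and a change in RNA per cell cannot be told apart.

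**Figure D1:**
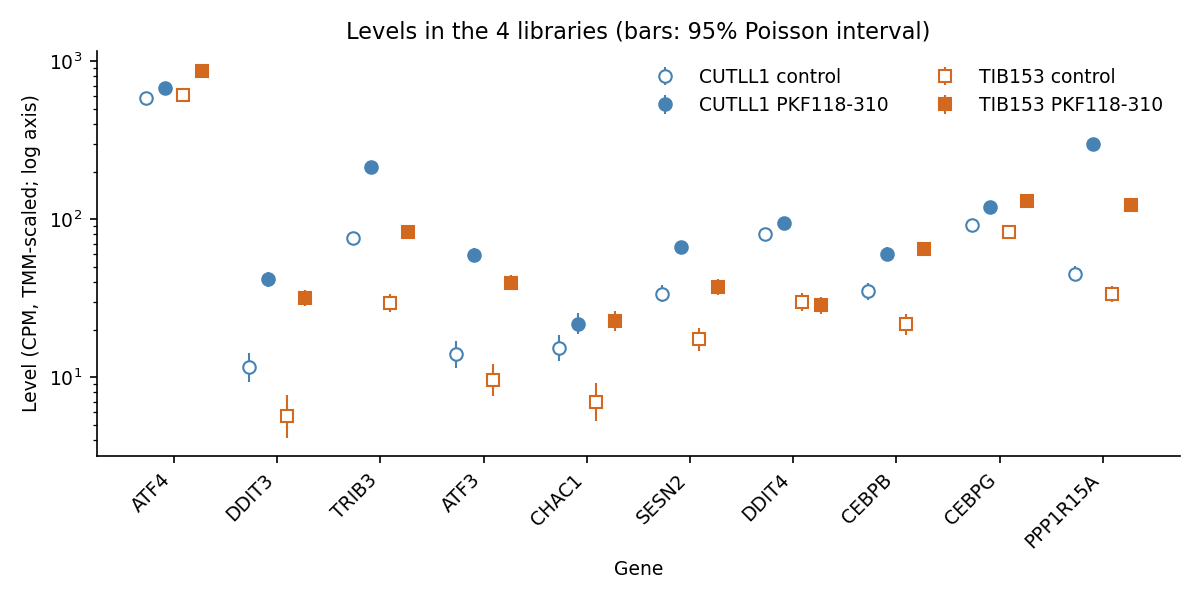
Level of each gene in each of the 4 libraries, in TMM-scaled CPM on a log axis, with 95% Poisson intervals that cover counting error only (circles, CUTLL1; squares, TIB153; open, control; filled, PKF118-310). Filled symbols lie above the open ones of the same line for every gene except DDIT4 in TIB153, where they were 28.5 and 29.9 CPM.

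ATF4 (ENSG00000128272, chr22:39519695-39522685, plus strand), the factor at the head of the response, was already abundant in control cells. Its level was 582 CPM in control and 674 CPM in treated CUTLL1, and 607 and 868 CPM in TIB153. Both treated libraries were above both controls, as for every member but DDIT4. The share of all genes that separated in this way was not computed. The ratio was 1.16-fold in CUTLL1 (log2 0.21, 95% interval 0.15 to 0.27) and 1.43-fold in TIB153 (log2 0.52, 0.46 to 0.57). Across the lines, the log2 change of 0.36 ± 0.13 (n = 2 lines, SE derived from the test) did not pass (edgeR adjusted p = 0.0889). ATF4 pseudogenes held 0.932% to 1.07% as many counts as ATF4 in the 4 libraries.

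DDIT3 (ENSG00000175197, chr12:57516588-57521737, minus strand), which encodes CHOP, the factor tied to death under lasting stress, had few counts in control cells. There were 86 counts in control and 335 in treated CUTLL1, or 11.6 and 41.7 CPM. TIB153 gave 44 and 266 counts, or 5.71 and 31.7 CPM. The lower treated library thus held more than the higher control, as for every member but DDIT4. DDIT3 was 3.58-fold higher in treated CUTLL1 (log2 1.84, 1.5 to 2.21) and 5.49-fold higher in treated TIB153 (log2 2.46, 2.01 to 2.97). It rose across the lines by 2.13 ± 0.23 on the log2 scale (edgeR adjusted p = 0.000173). Of its exonic bases, 31.6% are shared with genes of the other strand and 8.03% with AC022506.1 on the same strand. AC022506.1 had 0 counts in all 4 libraries. The library kit keeps strand, per the labels, but whether the counting used it is not stated in the sources used here. Of the neighbours on the other strand, MARS had 2403, 2572, 2197 and 2933 counts and MBD6 had 381, 745, 273 and 752 counts, in the order control and treated CUTLL1, control and treated TIB153. Their part in the DDIT3 counts was not tested.

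ATF3 (ENSG00000162772, chr1:212565334-212620777, plus strand), a bZIP factor induced by many stresses, changed by nearly the same factor in both lines. Its level was 14.0 CPM in control and 59.7 CPM in treated CUTLL1, and 9.61 and 39.6 CPM in TIB153. The ratios were 4.24-fold (log2 2.08, 1.78 to 2.41) and 4.10-fold (log2 2.04, 1.68 to 2.43). The difference between them, TIB153 minus CUTLL1, was -0.05 on the log2 scale (95% interval -0.52 to 0.43). Across the lines, ATF3 rose by 2.07 ± 0.19 (log2, edgeR adjusted p = 6.12e-05).

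CEBPB and CEBPG encode C/EBP factors that can pair with ATF4. CEBPB (ENSG00000172216, chr20:50190734-50192689, plus strand) was at 35.1 and 60.5 CPM in control and treated CUTLL1 and at 21.7 and 65.1 CPM in TIB153. It was thus lower in control TIB153 than in control CUTLL1, and about equal after treatment. The ratio was 1.72-fold in CUTLL1 (log2 0.79, 0.57 to 1.01) and 3.0-fold in TIB153 (log2 1.58, 1.33 to 1.85), and the gene rose across the lines by 1.18 ± 0.20 (log2, edgeR adjusted p = 0.00517). Its antisense gene CEBPB-AS1 had 11 to 27 counts per library. CEBPG (ENSG00000153879, chr19:33373330-33382686, plus strand) moved less, from 91.9 to 119 CPM in CUTLL1 and from 83.2 to 131 CPM in TIB153. It rose 1.43-fold across the lines (log2 0.52 ± 0.13, edgeR adjusted p = 0.0216). This call was lost with DESeq2 (adjusted p = 0.135).

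PPP1R15A (ENSG00000087074, chr19:48872392-48876057, plus strand) had the highest fold of the 10 genes across the lines. Its counts were 334 in control and 2392 in treated CUTLL1, and 259 and 1035 in TIB153, or 45.1, 298, 33.6 and 123 CPM. The treated libraries did not overlap the controls, as for every member but DDIT4, and treated CUTLL1 stood far above treated TIB153. The ratio was 6.61-fold in CUTLL1 (log2 2.72, 2.56 to 2.90) and 3.66-fold in TIB153 (log2 1.87, 1.68 to 2.08). It rose across the lines by 2.31 ± 0.20 on the log2 scale (edgeR adjusted p = 0.000382). By the size of this change it was at rank 61 of 13280 genes in the upward direction, with DDIT3 at 84 and ATF3 at 96.

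TRIB3 (ENSG00000101255, chr20:362835-397559, plus strand) encodes a pseudokinase that is a target of ATF4 and CHOP and restrains ATF4 in turn. Its level was 76.1 CPM in control and 213 CPM in treated CUTLL1, and 29.6 and 83.0 CPM in TIB153. Treated TIB153 thus reached only about the level of control CUTLL1, yet the ratio was 2.80-fold in both lines (log2 1.49, 1.35 to 1.63, and 1.48, 1.27 to 1.71). Across the lines the change was 1.49 ± 0.13 (log2, edgeR adjusted p = 5.56e-05).

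CHAC1 (ENSG00000128965, chr15:40952962-40956519, plus strand) encodes an enzyme that breaks down glutathione. It was at 15.4 CPM in control and 21.8 CPM in treated CUTLL1, and at 7.01 and 22.7 CPM in TIB153. The control libraries differed, and the treated ones did not differ beyond counting error. The ratio was 1.42-fold in CUTLL1 (log2 0.50, 0.15 to 0.86) and 3.22-fold in TIB153 (log2 1.69, 1.25 to 2.16). It rose 2.09-fold across the lines (log2 1.06 ± 0.29, edgeR adjusted p = 0.037), a call that was lost with DESeq2 (adjusted p = 0.136) and with lane 1 left out (edgeR adjusted p = 0.0784).

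SESN2 and DDIT4 both encode brakes on the growth kinase complex mTORC1, and their RNA did not move alike. SESN2 (ENSG00000130766, chr1:28259527-28282491, plus strand), a leucine sensor, was at 33.7 and 67.0 CPM in control and treated CUTLL1 and at 17.4 and 37.3 CPM in TIB153. It rose 2.06-fold across the lines (log2 1.04 ± 0.17, edgeR adjusted p = 0.00265). The TIB153 log2 ratio of 1.10 (0.80 to 1.40) was 1.47 with lane 1 left out and 0.79 with lane 2 left out. DDIT4 (ENSG00000168209, chr10:72273920-72276036, plus strand), which encodes REDD1, was at 80.9 and 94.7 CPM in CUTLL1 and at 29.9 and 28.5 CPM in TIB153. Its log2 ratio was 0.23 (0.07 to 0.38) in CUTLL1 and -0.07 (-0.34 to 0.20) in TIB153, and the change across the lines was 0.09 ± 0.15 (edgeR adjusted p = 0.739). The libraries of a line lay close together, and the lines stood apart. Of the exonic bases of DDIT4, 41.2% are shared with DDIT4-AS1 on the other strand, which had 0 or 1 counts per library. The part of this overlap in the DDIT4 counts was not tested.

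**Figure D2:**
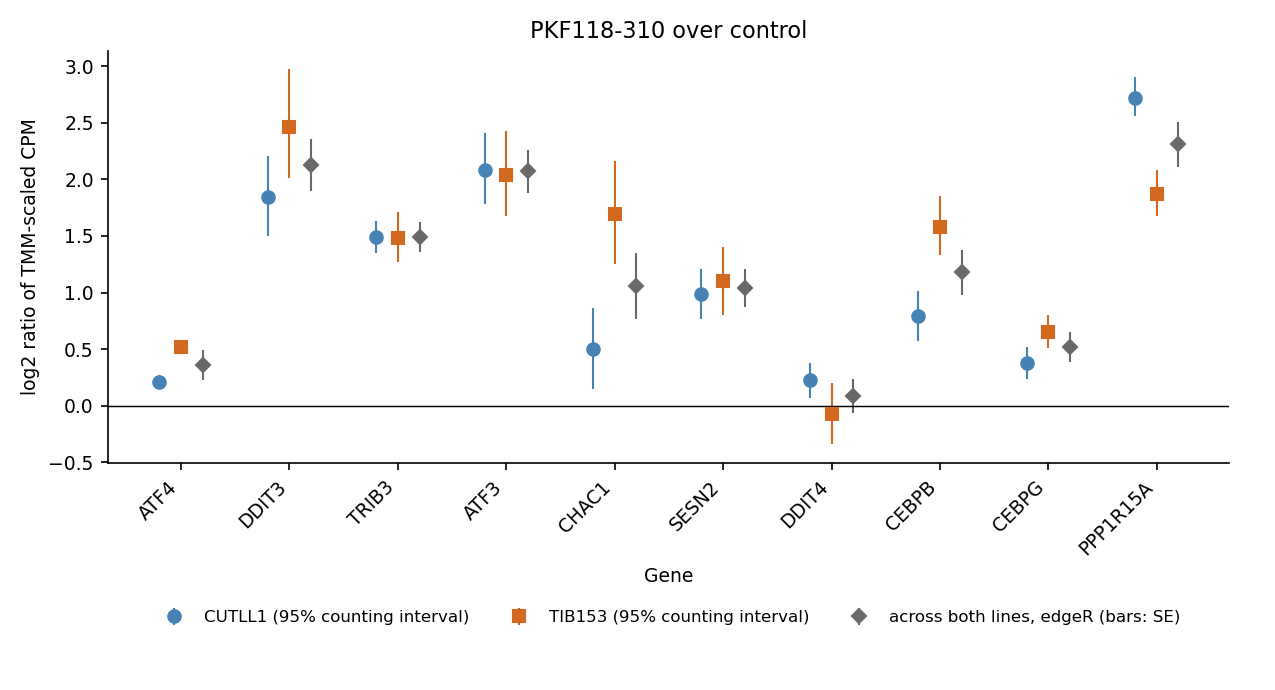
Log2 ratio of TMM-scaled CPM, PKF118-310 over control, for each gene, with circles for CUTLL1, squares for TIB153 and 95% counting intervals, and the edgeR change across both lines (diamonds, bars are SE). Intervals lie above 0 in both lines for every gene except DDIT4, whose ratio was 0.23 in CUTLL1 and -0.07 in TIB153.

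The response was next compared between the lines, which rests on counting error alone. In CUTLL1, 4 of the 10 genes (DDIT3, TRIB3, ATF3 and PPP1R15A) were at least 2-fold higher after treatment with an interval that left out no change, against 4.80% of all genes. SESN2, at 1.99-fold, lay just short of that limit. In TIB153, CHAC1, SESN2 and CEBPB joined them, giving 7 of 10 against 5.47% of all genes. The same 4 genes met the limit in both lines, against 1.94% of all genes, and 9 of 10 were higher beyond counting error in both, against 13.1%. The number at least 2-fold lower was 0 in either line, against 2.21% of all genes in CUTLL1 and 2.12% in TIB153.

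For 5 genes, the log2 ratio was higher in TIB153 than in CUTLL1 beyond counting error, against 14.1% of all genes. CHAC1 gave the widest difference, 1.19 (95% interval 0.64 to 1.74), followed by CEBPB with 0.80 (0.47 to 1.13) and DDIT3 with 0.62 (0.05 to 1.19). ATF4 and CEBPG differed by 0.31 (0.23 to 0.38) and 0.27 (0.07 to 0.47). PPP1R15A was the 1 gene of the 10 with a higher ratio in CUTLL1 beyond counting error, with a difference of -0.85 (-1.11 to -0.60), against 19.1% of all genes in that direction. TRIB3 (0.00, -0.26 to 0.25), SESN2 (0.11, -0.26 to 0.47) and DDIT4 (-0.30, -0.60 to 0.01) gave intervals that included no difference. With 1 library per group, these intervals say nothing of how far repeat cultures would vary.

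Between the control libraries, most of the stress effectors were lower in TIB153. Beyond counting error, 8 of the 10 genes were higher in control CUTLL1, against 27.6% of all genes, and 4 were at least 2-fold lower in control TIB153, against 6.12%, while 0 were at least 2-fold higher there, against 9.45%. These were DDIT4 (2.71-fold, log2 -1.44, -1.66 to -1.22), TRIB3 (2.57-fold, log2 -1.36, -1.59 to -1.14), CHAC1 (2.18-fold, log2 -1.13, -1.63 to -0.65) and DDIT3 (2.02-fold, log2 -1.01, -1.58 to -0.48). DDIT3 was just past the limit and SESN2, at -0.95 (-1.27 to -0.65), just short of it. CEBPB (-0.69), ATF3 (-0.54) and PPP1R15A (-0.42) were lower by less. The CEBPB value was -0.99 with lane 1 left out and -0.38 with lane 2 left out. ATF4 was close to equal (log2 0.06, 0.00 to 0.12), as was CEBPG (-0.14, -0.30 to 0.02). The median log2 ratio of the 10 was -0.82, and that of all genes was 0.00.

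After treatment, 3 genes were at least 2-fold lower in TIB153 than in CUTLL1, against 6.66% of all genes, and 0 were at least 2-fold higher, against 10.2%. DDIT4 was at -1.73, TRIB3 at -1.36 and PPP1R15A at -1.27 on the log2 scale. SESN2 (-0.85), ATF3 (-0.59) and DDIT3 (-0.40) were also higher in CUTLL1 beyond counting error. The share of all genes by this measure was not computed for the treated libraries, so no count of members is given. CHAC1 (0.06) and CEBPB (0.11) did not differ beyond counting error in the treated libraries, while ATF4 (0.37) was higher in TIB153. CEBPG (0.13, 0.00 to 0.26) was higher there only at the edge of counting error. Since the ratio between the controls and the response of each line use the same control libraries, these values are set side by side only.

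**Figure D3:**
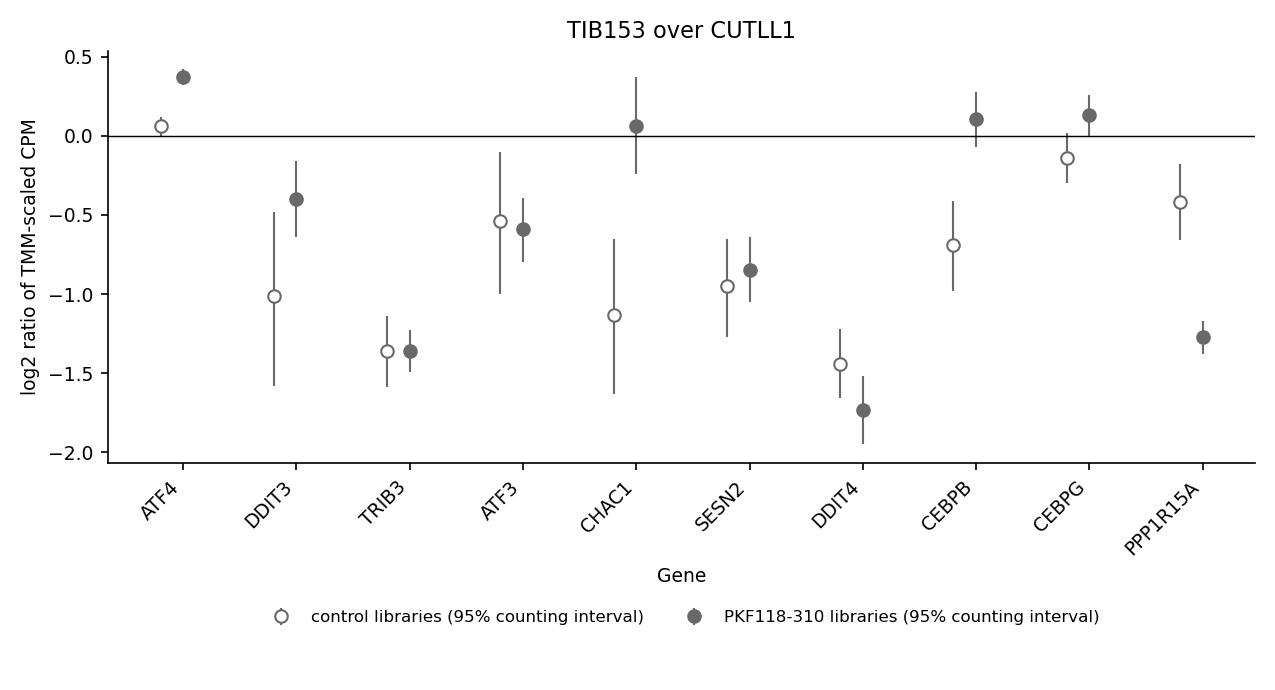
Log2 ratio of TMM-scaled CPM, TIB153 over CUTLL1, in the control libraries (open) and the PKF118-310 libraries (filled), with 95% counting intervals. CHAC1 and CEBPB lie below 0 in the controls (-1.13 and -0.69) and near 0 after treatment (0.06 and 0.11), TRIB3 stays at -1.36, and PPP1R15A goes from -0.42 to -1.27.

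Per kilobase of exon, ATF4 had the highest level of the 10 genes in every library, at 232 and 268 CPM per kb in control and treated CUTLL1 and 241 and 345 CPM per kb in TIB153. In control CUTLL1 it was followed by DDIT4 (39.3), then TRIB3 and CEBPG (22.2 and 20.8, close to each other), CEBPB (17.9), PPP1R15A (14.6), SESN2 (9.77), DDIT3 (8.88), CHAC1 (7.47) and ATF3 (3.47). In treated CUTLL1, PPP1R15A (96.3 CPM per kb) was next to ATF4, ahead of TRIB3 (62.1) and DDIT4 (46.0), with DDIT3 and CEBPB close together at 31.9 and 31.0. In control TIB153, CEBPG (18.9) and DDIT4 (14.5) came next, with CEBPB and PPP1R15A not apart (11.1 and 10.9). PPP1R15A (39.8), CEBPB (33.3) and CEBPG (29.7) followed ATF4 in treated TIB153. ATF4 made up 59.1% of the summed CPM of the 10 genes in control and 40.8% in treated CUTLL1, and 71.9% and 60.7% in TIB153. Without ATF4, the sum went from 404 to 976 CPM in CUTLL1 and from 238 to 562 CPM in TIB153.

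The wider pathway was then described by 11 lists holding 137 tested genes, of which 30 rose (21.9%, against 6.11% of all genes) and 11 fell (8.03%, close to the 6.78% of all genes). The lists were chosen with earlier results of these data known, so these shares only describe the chosen genes. DESeq2 called 20 up and 4 down. Among the kinases of eIF2, eIF2 itself, its exchange factor eIF2B and its phosphatase, 1 of 19 tested genes rose and 3 fell, with a median log2 change of -0.17. The gene that rose was PPP1R15B (0.46 ± 0.13, edgeR adjusted p = 0.0327), the constitutive partner of the eIF2 phosphatase. EIF2AK1, which encodes HRI, went from 303 to 208 CPM in CUTLL1 and from 224 to 157 CPM in TIB153 and fell (log2 -0.53 ± 0.12, edgeR adjusted p = 0.0144). EIF2AK4, which encodes GCN2, fell by 0.54 and PPP1CA, the catalytic subunit of the phosphatase, by 0.52 on the log2 scale. EIF2AK3, which encodes PERK, was higher in CUTLL1 (0.35) and TIB153 (0.36) but did not pass (edgeR adjusted p = 0.185). EIF2AK2, which encodes PKR, did not pass either (-0.30). PPP1CC (-0.13) and EIF2S2 (-0.13) did not pass the test. DESeq2 called 0 genes of this list up and 1 down, EIF2AK1.

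Of 9 tested paralogues of the members, 3 rose by edgeR and 0 fell (2 at an unadjusted p under 0.05, 0 by DESeq2), with a median of 0.46. The shares of all genes were 6.11% and 6.78%. ATF5, which encodes a bZIP factor close to ATF4, was at 192 and 398 CPM in control and treated CUTLL1 and at 33.4 and 68.1 CPM in TIB153. It rose 2.06-fold (log2 1.04 ± 0.13, edgeR adjusted p = 0.000382) although ATF4 RNA itself did not pass. SESN3, from 14.2 to 32.5 CPM in CUTLL1 and from 14.8 to 23.1 CPM in TIB153, rose by 0.92 ± 0.22 (log2, edgeR adjusted p = 0.0178), whereas SESN1 was at -0.15. PPP1R15B is the third. ATF5 was the 1 paralogue that DESeq2 also called. TRIB2 was at 36.8 and 36.4 CPM in CUTLL1 and at 155 and 85.4 CPM in TIB153 (log2 -0.47, edgeR adjusted p = 0.138), and so did not rise with TRIB3. TRIB1 (1.31), CEBPE (0.51), CEBPA (0.12) and CHAC2 (-0.56) did not pass either. CEBPD, with 1 to 5 counts per library, and DDIT4L, with 0, were too low to test.

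All 10 bZIP partners were tested, and 5 rose and 0 fell by edgeR (0 at an unadjusted p under 0.05, 0 by DESeq2), with a median of 0.47. Over all genes the shares were 6.11% and 6.78%. JUN, a subunit of AP-1, was at 15.1 and 91.6 CPM in control and treated CUTLL1 and at 7.27 and 63.0 CPM in TIB153. It rose 7.11-fold (log2 2.83 ± 0.19, edgeR adjusted p = 8.04e-06). JDP2, a JUN dimerization partner, rose by 1.76 ± 0.26 (log2, edgeR adjusted p = 0.00175). NFE2L2, the antioxidant factor NRF2, and JUND rose by 0.54 and 0.53 on the log2 scale, and the fifth was NFE2L1 (0.41). CREB1 (-0.04) and ATF2 (0.30) did not pass. DESeq2 called JUN and JDP2 only.

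**Figure D4:**
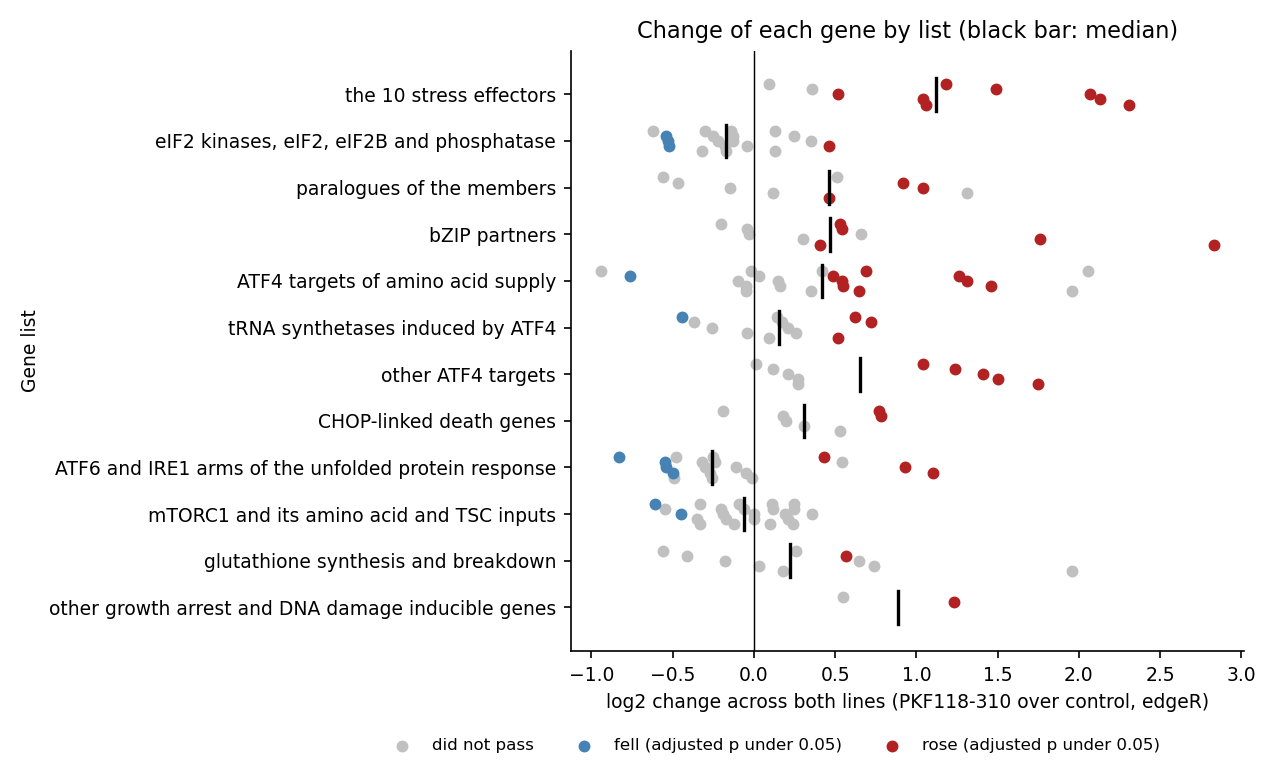
Log2 change across both lines (PKF118-310 over control, edgeR) of each tested gene, by gene list, with the 10 stress effectors on top (red, rose; blue, fell; grey, did not pass; black bar, median). The medians run from -0.26 for the ATF6 and IRE1 arms to 1.12 for the stress effectors, and JUN lies farthest to the right at 2.83.

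Targets of ATF4 that supply amino acids came next, and 8 of 21 tested genes rose and 1 fell, with a median of 0.42. These shares were 38.1% and 4.76%, against 6.11% and 6.78% of all genes. SLC3A2, the heavy chain of the CD98 transporters, had the smallest p. It was at 530 and 1319 CPM in control and treated CUTLL1 and at 225 and 557 CPM in TIB153, and it rose 2.48-fold (log2 1.31 ± 0.13, edgeR adjusted p = 8.35e-05). GPT2, a mitochondrial transaminase, rose by 1.26 ± 0.17 (log2, edgeR adjusted p = 0.000784), MTHFD2 of mitochondrial folate metabolism by 0.69 and the glutamine carrier SLC1A5 by 0.65. ALDH18A1, an enzyme of proline synthesis, fell by 0.76. SLC38A2 (0.16) and SLC7A1 (0.03) did not pass. ASNS, the asparagine synthetase gene, was named after its values were seen, since it had only 6, 11, 2 and 28 counts in control and treated CUTLL1 and control and treated TIB153 (edgeR adjusted p = 0.0724).

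Of 12 tRNA synthetase genes, CARS (0.72), SARS (0.62) and AARS (0.52) rose and IARS fell by 0.44 on the log2 scale, with a median of 0.16. The share that rose was 25.0%, against 6.11% of all genes. The share that fell, 8.33%, was near the 6.78% of all genes. The call of IARS was lost with total-count scaling and with DESeq2. GARS (0.26) and YARS (0.17) did not pass. Among other ATF4 targets, 5 of 10 tested genes rose and 0 fell by edgeR (0 at an unadjusted p under 0.05, 0 by DESeq2), with a median of 0.66. VEGFA, an angiogenic factor, was at 41.4 and 105 CPM in control and treated CUTLL1 and at 7.01 and 35.8 CPM in TIB153, and rose by 1.75 ± 0.23 (log2, edgeR adjusted p = 0.002). STC2 and VLDLR rose by 1.41 and 1.24 on the log2 scale, and ATF5 as above. FAM129A was the fifth (1.5), a call that DESeq2 did not make (adjusted p = 0.12). XPOT (0.21) and LONP1 (0.01) did not pass, and GDF15, with 0 or 1 counts per library, was too low to test.

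In the list of death genes linked to CHOP, all were tested, and 2 of 7 rose and 0 fell by edgeR (0 at an unadjusted p under 0.05, 0 by DESeq2). Whether CHOP controls them in these cells was not tested. Of all genes, 6.11% rose and 6.78% fell, and a list of 7 is small. PMAIP1, the BH3-only protein NOXA, was at 129 and 241 CPM in control and treated CUTLL1 and at 38.7 and 59.9 CPM in TIB153, and rose by 0.78 ± 0.13 (log2, edgeR adjusted p = 0.00329). TNFRSF10B, the death receptor DR5, rose by 0.77 ± 0.15 (log2, edgeR adjusted p = 0.00643). MCL1, an antiapoptotic BCL2 relative (0.31), and ERO1A, the oxidase of the endoplasmic reticulum (-0.19), did not pass.

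The other arms of the unfolded protein response, ATF6 and IRE1, had a median of -0.26, and 3 of 19 genes rose and 4 fell, against 6.11% and 6.78% of all genes. DNAJB9 (1.10 ± 0.20), a chaperone partner of BiP, ERN1 (0.93 ± 0.17), which encodes IRE1, and EDEM1 (0.43 ± 0.12) rose. The chaperone genes SDF2L1, HSP90B1 and PDIA6 fell by 0.83, 0.55 and 0.50 on the log2 scale, and XBP1 fell by 0.54. HSPA5, which encodes BiP, was at 447 and 392 CPM in control and treated CUTLL1 and at 422 and 243 CPM in TIB153 and did not pass (edgeR adjusted p = 0.0561), nor did CALR (-0.24). DESeq2 called 2 up and 1 down.

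In the list of mTORC1 and its amino acid and TSC inputs, where SESN2 and DDIT4 act, 0 of 23 tested genes rose by edgeR (0 at an unadjusted p under 0.05, 0 by DESeq2) and 2 fell, a share near the 6.78% of all genes, with a median of -0.06. SEH1L of the GATOR2 complex fell by 0.61 and EIF4EBP2, a translation repressor under mTORC1, by 0.45. With total-count scaling, 1 of the 2 was called. MTOR (-0.33) and SEC13 (0.00) did not pass. Of 10 genes of glutathione synthesis and breakdown, around CHAC1, GSR, the glutathione reductase, rose by 0.57, and 0 fell by edgeR (1 at an unadjusted p under 0.05, 0 by DESeq2). The share that rose, 10.0%, was near the 6.11% of all genes. SLC7A11, the cystine carrier, was at 53.3 and 137 CPM in control and treated CUTLL1 and at 7.27 and 52.7 CPM in TIB153, and its log2 change of 1.96 ± 0.39 did not pass (edgeR adjusted p = 0.0571). It passed under 5 of 8 other fits, total-count scaling (adjusted p = 0.0374) and RLE scaling (0.0437) among them, but not by DESeq2 (0.0545). GCLC was at 0.03. GADD45B, a stress gene of the same naming family as DDIT3, rose by 1.23 ± 0.29 (log2, edgeR adjusted p = 0.0177), a call that DESeq2 did not make (adjusted p = 0.0793), and GADD45A (0.55) did not pass. GADD45G, with 0 and 19 counts in control and treated CUTLL1 and 0 and 1 in TIB153, did not pass the low-count filter. No tested gene of that family fell (0 of 2 by edgeR, 0 at an unadjusted p under 0.05, 0 by DESeq2), against 6.78% of all genes, and 1 of the 2 rose, against 6.11%.

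The genes whose pattern lay closest to those of ATF4 and DDIT3 were sought among 9718 genes at 5 CPM or more in all 4 libraries, by the Euclidean distance over 3 log2 ratios (treated over control in CUTLL1 and in TIB153, and TIB153 over CUTLL1 in the controls). For ATF4 these were IFNGR1 (distance 0.0413), SNX11 (0.0428) and CYHR1 (0.0485). For DDIT3 the closest gene was ATF3 (0.676), then GAB2 (0.678) and ASS1 (0.947). GAB2 had ratios of 2.07 and 3.01 in CUTLL1 and TIB153 and ASS1 of 1.43 and 1.75. With 4 libraries, the distances describe these libraries only.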

How the data were processed

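The authors deposited read counts per gene for each of 8 lane files (4 libraries on 2 lanes each), with hg38, HISAT2, HTSeq and DESeq2 listed in the submitters' processing notes, where roles, versions and the strand setting are not stated. Gene positions equal GENCODE release 29 (hg38). Tables of the authors' own comparisons (counts, fold changes and p-values of the genes they called) were not used, among them 8 columns of per-sample counts that match no sample label. Lanes are technical repeats and were summed, giving n = 1 analysed library per group. Counts were scaled by TMM. The treatment was tested across lines with edgeR 4.0.16 (quasi-likelihood, robust, line as a term) in R 4.3.3 on the 13280 genes kept by filterByExpr, with 1 residual degree of freedom, Benjamini-Hochberg adjustment over all of them and a threshold of 0.05. The line term is the block: both lines hold a control and a treated library, so it pairs samples of the same cell line. Each SE is the size of the log2 change over the square root of the test's F statistic, not the spread between the lines' own ratios. SE values and p-values rest mostly on spread pooled over genes (median prior degrees of freedom, 13), and little on a gene's own agreement between lines. Nothing in the labels names separate cultures, so the p-values hold no measured spread between repeat cultures.

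Ratios within a line and between controls used 0.5 added counts, and their 95% intervals are exact binomial, those of levels exact Poisson and those of differences normal. All cover counting error only and carry no test. A level of 2-fold or more counted as a limit. Named genes were all members and paralogues, up to 4 per direction of each list with the smallest p, up to 2 that did not pass with the highest level, and the 3 closest genes to ATF4 and to DDIT3. A few further genes, ASNS, GDF15 and the fifth gene of 2 lists among them, were named after their values were seen. Members and lists were chosen with earlier results of these data known. Alternatives were total-count and RLE scaling, no low-count filter, no robust option, no line term, DESeq2 1.42.0, each lane left out, each line alone, a 1.5-fold limit and 2 added counts.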

Additional observations from a re-analysis of the deposited data

How the results depend on the processing

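Without the line as a replicate block, 0 members rose by edgeR (5 at an unadjusted p under 0.05), 0 genes rose and 0 fell in all (437 and 452 at an unadjusted p under 0.05), and 0 genes of the pathway lists rose or fell. By DESeq2, which keeps the block, 6 members rose, 200 genes rose and 258 fell in all, and 4 genes of the lists fell. With total-count scaling 552 genes fell in all, and 7 of the lists. With either lane left out, 592 to 750 genes fell. The cause was not tested, except that dropping the block adds the difference between lines to the spread and leaving out a lane removes reads. Of 80 tested values of the members' changes across lines under the alternatives, 69 kept their direction and side of the threshold and 11 lost the threshold. Of 20 ratios of a line alone, which have no test, 13 moved beyond the SE, and 1 had the opposite sign, DDIT4 in TIB153 (-0.07, against 0.09). PPP1R15A in CUTLL1 gave log2 ratios of 2.56 to 2.93 with a lane left out, and the SESN2 difference between lines -0.26 to 0.53. Total-count scaling moved the median log2 ratio of all genes by at most 0.06, and RLE scaling by at most 0.02 in size (-0.02, control libraries). With 1 library per group, depth sets the intervals, and the spread between cultures was not measured in the libraries used here.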
